A study of Oryza sativa with 7 samples.

Results

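NF-YB1 (Os02g0725900), NF-YB7 (Os02g0725700) and NF-YB9 (Os06g0285200) are 3 rice genes for NF-YB proteins of the seed, and their transcripts were followed here in the young rice grain. They were chosen by name, as the NF-YB partner genes of OsbZIP76 and relatives of the Arabidopsis gene LEC1, and make up 3 of the 35825 rows of the expression table. The study looked for transcripts that change in the caryopsis (the young grain, including maternal layers) when OsbZIP76 is mutated; this bZIP transcription factor is linked to endosperm cellularization, the step at which the syncytial endosperm forms cell walls. Plants were grown in a paddy field, and poly(A) RNA of caryopses was sequenced 2 days after fertilization, when cellularization was early in both genotypes because of summer heat, per the design text. The labels give caryopsis as the source, while their extraction protocol speaks of endosperm. The groups analysed were 2 libraries of the mutant osbzip76-1, 1 library of the independent mutant osbzip76-2 and 3 libraries of the wild type (WT). WT is the cultivar Kitaake, and the labels do not describe the lesion of either mutant. The other osbzip76-2 library of the labels was not analysed here, so a difference of that allele cannot be told apart from a deviation of its 1 library. OsbZIP76 itself was not analysed here either, and the genotypes are taken from the labels.

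NF-Y is a DNA-binding complex built from NF-YA, NF-YB and NF-YC proteins. NF-YB and NF-YC pair through histone-fold domains, and NF-YA joins them and reads the CCAAT sequence. In Arabidopsis the NF-YB protein LEC1 is a central regulator of embryo and seed development. In rice NF-YB1 is known from the endosperm, where it has been reported to act on sucrose transporter genes and on the GBSSI (Waxy) gene of amylose synthesis. In bulk samples such as these, fewer cells of a type and less RNA per cell cannot be told apart.

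The library totals recovered from the RPKM steps were between 19900850 and 24887952 reads, of which 82.8% to 85.7% lay in genes. A principal component analysis set WT replicate 2 apart: its score on the leading axis (45.3% of the variance) was 61.3, and the other 5 libraries scored -30.5 to 2.97. Among these, the osbzip76-1 libraries scored -27.3 and -30.5 and the osbzip76-2 library -5.48. WT replicates 1 and 3 scored 2.97 and -0.94, so all mutant libraries lay below all WT libraries on this axis. The fold changes and ratios of the members are given with and without WT replicate 2. The summed level of the 3 endosperm markers, of 5 listed, that could be named (GBSSI, AGPL2 and SUS3) was 403 to 546 RPKM in mutant libraries and 75.8 to 244 RPKM in WT, with WT replicate 2 at 75.8 RPKM. RPKM scales the reads of a gene by the length of its model and by the size of the library. The 2 markers of maternal tissue that could be named, of 4 listed (MADS29 and RBCS), summed to 159 to 167 RPKM in mutant libraries and 162 to 196 RPKM in WT. The 2 embryo markers (OSH1 and VP1) summed to 7.09 to 11.3 RPKM in mutant libraries and 6.84 to 9.93 RPKM in WT. WOX2, also planned as an embryo marker, was not used. The maternal sum hides opposite differences: MADS29 had 64.0 to 87.7 RPKM in mutant libraries and 98.4 to 139.7 RPKM in WT, and RBCS had 79.1 to 94.8 RPKM in mutant libraries and 55.9 to 63.2 RPKM in WT. Among genes that averaged 1 RPKM or more, all mutant libraries lay below all WT libraries for 12.3% and above them for 9.34%. No named marker was at 0 in any library. The part of tissue makeup in the members' values was not tested.

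All 3 genes were expressed in every library, at low to middling levels. Across the 6 libraries NF-YB9 averaged 13.9 RPKM, more than 60.9% of the 21454 genes tested. NF-YB1 averaged 9.18 RPKM, above 48.4% of them, and NF-YB7 averaged 3.16 RPKM, above 20.8%. Tests covered genes that averaged 1 RPKM or more across libraries, and all 3 members did. The gene models behind these values were 924 bases long for NF-YB9, 864 bases for NF-YB1 and 1078 bases for NF-YB7, as recovered from the steps of the RPKM values.

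NF-YB1 had 11.1 and 6.42 RPKM in the osbzip76-1 libraries and 22.4 RPKM in the osbzip76-2 library, against 7.40, 2.62 and 5.21 RPKM in WT replicates 1 to 3. The osbzip76-2 library was highest, WT replicate 2 was lowest, and the groups overlapped because osbzip76-1 replicate 2 lay below WT replicate 1. These values rest on 190, 117 and 457 reads in mutant libraries and on 154, 51 and 112 reads in WT. The osbzip76-1 replicates differed by more than their counting error, with exact 95% Poisson intervals of 9.53 to 12.7 RPKM and 5.31 to 7.69 RPKM. These intervals cover counting error only. NF-YB1 thus averaged 13.3 ± 8.2 RPKM in mutant libraries and 5.08 ± 2.39 RPKM in WT (SD, n = 3 each), a ratio of 2.62.

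NF-YB7, a rice relative of LEC1, had 4.47 and 2.11 RPKM in the osbzip76-1 libraries and 5.92 RPKM in the osbzip76-2 library, against 1.66, 2.84 and 1.94 RPKM in WT replicates 1 to 3. The osbzip76-2 library was again highest, and osbzip76-1 replicate 2 again lay within the WT range. Unlike the other members, NF-YB7 was at its highest WT level in WT replicate 2. Its values rest on 96, 48 and 151 reads in mutant libraries and on 43, 69 and 52 reads in WT, the fewest of the members in 5 of the 6 libraries. The Poisson interval of WT replicate 2, 2.21 to 3.60 RPKM, overlapped those of WT replicate 1 (1.20 to 2.23 RPKM) and WT replicate 3 (1.45 to 2.54 RPKM). NF-YB7 averaged 4.17 ± 1.93 RPKM in mutant libraries and 2.15 ± 0.62 RPKM in WT (SD, n = 3 each), a ratio of 1.94.

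NF-YB9, the other relative of LEC1, had 13.6 and 14.9 RPKM in the osbzip76-1 libraries and 19.0 RPKM in the osbzip76-2 library, against 15.1, 3.56 and 17.2 RPKM in WT replicates 1 to 3. Apart from WT replicate 2, the 5 libraries lay between 13.6 and 19.0 RPKM, and both osbzip76-1 libraries were below WT replicates 1 and 3. Its values rest on 250, 290 and 415 reads in mutant libraries and on 336, 74 and 396 reads in WT. NF-YB9 averaged 15.8 ± 2.8 RPKM in mutant libraries and 11.96 ± 7.35 RPKM in WT (SD, n = 3 each), a ratio of 1.32.

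The osbzip76-2 library was thus the highest of the 6 for every member, a position it held for 13.5% of all genes tested. WT replicate 2 was lowest for NF-YB1 and NF-YB9, as it was for 33.7% of all genes tested.

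**Figure D1:**
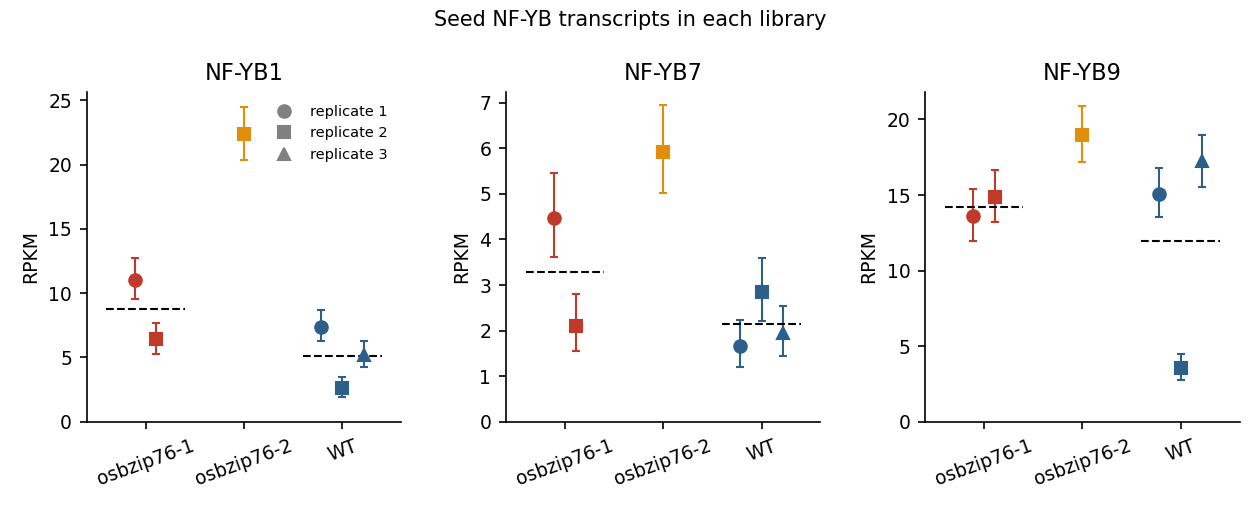
RPKM (y axis, from 0) of NF-YB1, NF-YB7 and NF-YB9 in each library, by genotype (x axis). Points are libraries with exact 95% Poisson intervals of their reads, marker shapes give the replicate number and dashed lines are means of groups with more than 1 library; the osbzip76-2 library is highest in each panel, at 22.4, 5.92 and 19.0 RPKM, and WT replicate 2 is lowest for NF-YB1 and NF-YB9, at 2.62 and 3.56 RPKM.

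The order of the levels was not the same in every library. NF-YB9 was the most abundant member in 5 of the 6 libraries, and NF-YB1 exceeded it in the osbzip76-2 library, where the ratio of NF-YB1 to NF-YB9 was 1.18. In the osbzip76-1 libraries that ratio was 0.813 and 0.431, and in WT replicates 1 to 3 it was 0.490, 0.737 and 0.302. NF-YB1 exceeded NF-YB7 by 2.47 to 3.78 times in the mutant libraries, and its ratio to NF-YB7 was 4.47, 0.922 and 2.69 in WT replicates 1 to 3. In WT replicate 2 all 3 members lay within 2.62 to 3.56 RPKM, with overlapping Poisson intervals. NF-YB9 was above NF-YB1 in each WT library, and their Poisson intervals lay apart in WT replicates 1 and 3. NF-YB1 was above NF-YB7 in WT replicates 1 and 3, with intervals apart, and not in WT replicate 2, so the order of these neighbours did not hold in every WT library. In the mutants NF-YB9 and NF-YB1 were in a different order in the osbzip76-2 library, where their Poisson intervals overlapped (20.4 to 24.5 RPKM for NF-YB1 and 17.2 to 20.9 RPKM for NF-YB9), and NF-YB7 was lowest in each mutant library.

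With both alleles set together against WT, none of the members passed the threshold. Genes were tested with limma on log2(RPKM + 1), a scale that understates the change of low genes, and a gene passed at a Benjamini-Hochberg adjusted p under 0.05 over all genes tested. In this comparison 83 of 21454 genes, or 0.387%, passed. NF-YB1 had a log2 fold change of 1.16 (SE 0.45, 95% interval 0.12 to 2.20, limma adjusted p = 0.321), and 1.10% of the genes tested had a higher one. NF-YB7 had a log2 fold change of 0.66 (SE 0.30, 95% interval -0.052 to 1.37, limma adjusted p = 0.394). NF-YB9 had a log2 fold change of 0.60 (SE 0.48, 95% interval -0.53 to 1.73, limma adjusted p = 0.620). The median log2 fold change of the 3 members was 0.66, and that of all genes tested was -0.017. Only NF-YB1 had an unadjusted limma p under 0.05 (0.0337), as did 13.7% of all genes tested. The intervals of NF-YB7 and NF-YB9 hold both 0 and changes above 2-fold, so the comparison does not show that these genes stayed level.

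The estimate for NF-YB9 turned on WT replicate 2. Without that library NF-YB9 had a log2 fold change of -0.039 (SE 0.16, 95% interval -0.41 to 0.33, limma adjusted p = 0.932). For NF-YB1 the estimate without it was 0.82 (SE 0.43, limma adjusted p = 0.416), and for NF-YB7 it was 0.81 (SE 0.32, limma adjusted p = 0.306). The estimates for NF-YB1 and NF-YB7 were 0.72 and 0.41 when the osbzip76-2 library was left out, and 1.55 and 0.99 when osbzip76-1 replicate 2 was left out. With array weights that of NF-YB1 was 0.49 (limma adjusted p = 0.398). No member passed the threshold when any single library was left out of this comparison.

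**Figure D2:**
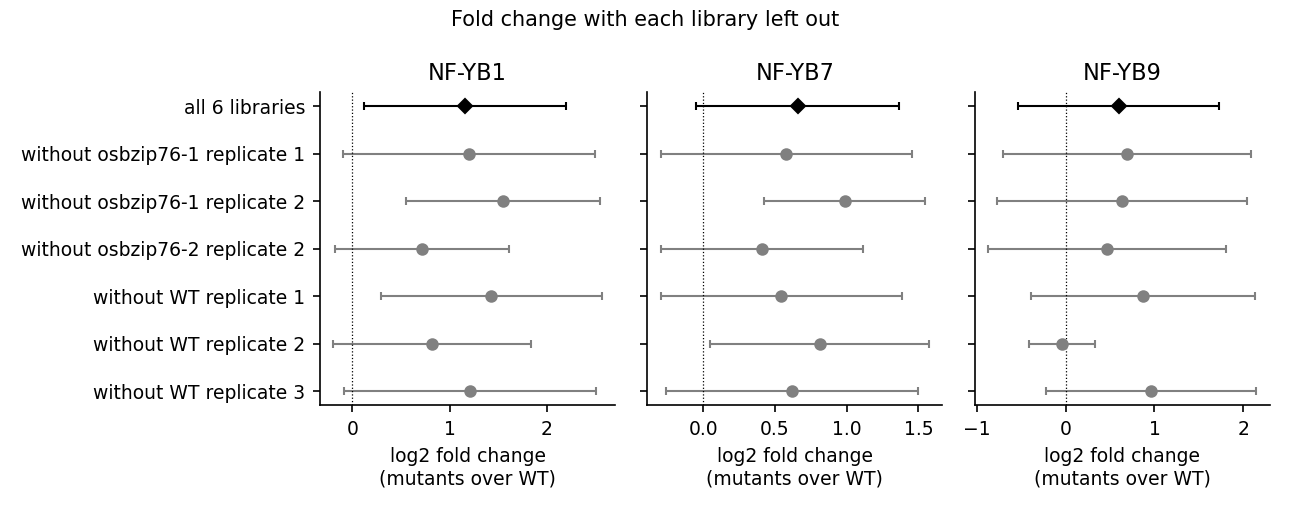
Log2 fold change of RPKM + 1, mutants over WT (x axis), for each member with all 6 libraries (black diamonds) and with each library left out in turn (grey points, rows); bars are 95% limma intervals and each panel has its own scale. The NF-YB9 estimate is 0.60 with all libraries and -0.039 without WT replicate 2, and the NF-YB1 estimates lie between 0.72 and 1.55 when a library is left out.

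Each allele was then set against WT alone, in a fit of 3 groups that shares 1 estimate of the spread. The osbzip76-2 group was 1 library, and the fit assumes that it varied like the others. In osbzip76-1 NF-YB1 averaged 8.73 ± 3.28 RPKM (SD, n = 2), with a log2 fold change of 0.72 (SE 0.38, limma adjusted p = 0.435). NF-YB7 averaged 3.29 ± 1.67 RPKM (SD, n = 2) in osbzip76-1, with a log2 fold change of 0.41 (SE 0.29, limma adjusted p = 0.549), and NF-YB9 averaged 14.2 ± 0.9 RPKM (SD, n = 2), with a log2 fold change of 0.47 (SE 0.56, limma adjusted p = 0.731). None of the members passed in osbzip76-1, where 0.382% of all genes tested did, and none had an unadjusted limma p under 0.05, as 13.9% of all genes tested did. Without WT replicate 2 the osbzip76-1 estimates were 0.39 for NF-YB1, 0.56 for NF-YB7 and -0.17 for NF-YB9 (limma adjusted p = 0.423, 0.297 and 0.463). The NF-YB7 estimate also turned on the osbzip76-1 libraries, at 0.82 when replicate 1 alone was used and 0.0011 when replicate 2 alone was used. For NF-YB1 these values were 1.07 and 0.37.

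In the osbzip76-2 library NF-YB1 had the largest difference of the members. Its log2 fold change against WT was 2.03 (SE 0.48, 95% interval 0.89 to 3.16, limma adjusted p = 0.225), and 0.816% of the genes tested had a higher one. NF-YB7 had a log2 fold change of 1.16 (SE 0.37, 95% interval 0.27 to 2.04, limma adjusted p = 0.472), and NF-YB9 one of 0.86 (SE 0.71, 95% interval -0.84 to 2.56, limma adjusted p = 0.992). Without WT replicate 2 the NF-YB9 value was 0.22 (limma adjusted p = 0.493). None passed with all libraries, where 0.690% of all genes tested passed. NF-YB1 and NF-YB7 had unadjusted limma p-values under 0.05 (0.00409 and 0.0176), as did 7.06% of all genes tested. NF-YB1 passed in this comparison without WT replicate 2 (log2 fold change 1.69, limma adjusted p = 0.0365), where 2.46% of all genes tested passed. It also passed with array weights (log2 fold change 1.65, limma adjusted p = 0.0315), where 3.07% passed. NF-YB7 did not pass in either setting (log2 fold change 1.31 and 1.32, limma adjusted p = 0.107 and 0.0605). Array weights of the fit with both alleles together gave WT replicate 2 a weight of 0.221, and those of the 3-group fit were not kept.

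The alleles were also compared with each other. The osbzip76-2 library stood above the osbzip76-1 libraries for each member, with a log2 fold change of 1.31 for NF-YB1 (SE 0.50, limma adjusted p = 0.956), 0.75 for NF-YB7 (SE 0.39, limma adjusted p = 0.998) and 0.39 for NF-YB9 (SE 0.76, limma adjusted p = 0.998). None passed, and 0.214% of all genes tested did. NF-YB1 had an unadjusted limma p of 0.0373, and 4.92% of all genes tested had one under 0.05. Leaving out WT replicate 2 leaves these estimates as they are and changes the spread, and none passed then either (limma adjusted p = 0.119, 0.359 and 0.286). An allele difference of the members was therefore not shown.

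Whether the members differed from each other in their response was tested on the ratio of each pair. The log2 ratio of NF-YB1 to NF-YB9 averaged -0.38 ± 0.67 in the mutants and -0.94 ± 0.61 in WT (SD, n = 3 each), a difference of 0.56 (exact two-sided permutation p = 0.4, adjusted p = 0.6 over the 3 pairs). For NF-YB1 to NF-YB7 the difference was 0.50 (exact permutation p = 0.4, adjusted p = 0.6), and for NF-YB7 to NF-YB9 it was 0.061 (exact permutation p = 1, adjusted p = 1). Without WT replicate 2 these differences were 0.86, 0.012 and 0.85, so that of NF-YB1 to NF-YB7 rested on that library. The smallest p that 3 libraries against 3 allow is 0.1, so this test could not reach the threshold.

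The remaining NF-Y subunit genes that could be named gave a background for the members. These were 6 NF-YB and 3 NF-YC genes, of which 8 were tested, and none passed the threshold in the mutants against WT. Of the 8, 3 had a positive and 5 a negative log2 fold change, with a median of -0.17 against -0.017 over all genes tested. NF-YB2, NF-YB3 and NF-YB4 (also called HAP3A, HAP3B and HAP3C), known in rice for their part in the expression of chloroplast genes, were the most abundant of these 6 NF-YB genes. NF-YB3 had 71.2, 63.5 and 70.6 RPKM in mutant libraries and 80.9, 90.7 and 73.1 RPKM in WT (log2 fold change -0.25, SE 0.12, limma adjusted p = 0.407). NF-YB4 had 11.9, 11.3 and 10.8 RPKM in mutant libraries and 14.8, 18.5 and 15.2 RPKM in WT (log2 fold change -0.47, SE 0.12, limma adjusted p = 0.183). With array weights NF-YB4 passed (log2 fold change -0.37, limma adjusted p = 0.0446), a setting in which 1246 of all genes tested passed. NF-YB2 averaged 29.5 ± 1.1 RPKM in mutant libraries and 31.5 ± 3.3 RPKM in WT (SD, n = 3 each). NF-YB10 was close to the filter, at 0.863, 0.864 and 1.41 RPKM in mutant libraries and 2.09, 1.53 and 1.47 RPKM in WT. All mutant libraries lay below all WT libraries for NF-YB3, NF-YB4 and NF-YB10, 3 of the 8 genes, as they did for 12.3% of all genes tested.

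Of the NF-YC genes, which supply the partners that NF-YB proteins need, NF-YC6 was the most abundant. It had 50.5 ± 4.0 RPKM in mutant libraries and 44.9 ± 3.2 RPKM in WT (SD, n = 3 each; log2 fold change 0.16, SE 0.11, limma adjusted p = 0.546). All of its mutant libraries were above all WT libraries, as for 9.34% of all genes tested. NF-YC2 averaged 12.9 ± 0.7 RPKM in mutant libraries and 12.7 ± 1.0 RPKM in WT, and NF-YC4 4.59 ± 0.80 RPKM in mutant libraries and 5.72 ± 0.92 RPKM in WT (SD, n = 3 each). NF-YB11 (DTH8, Ghd8), a flowering-time gene, was below the filter at 0.0262 to 0.164 RPKM in mutant libraries and 0 to 0.138 RPKM in WT. The model length recovered for its row, 1802 bases, exceeds the 1071 bases that the gene spans in the gene table of another assembly, so what the row measures is uncertain.

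**Figure D3:**
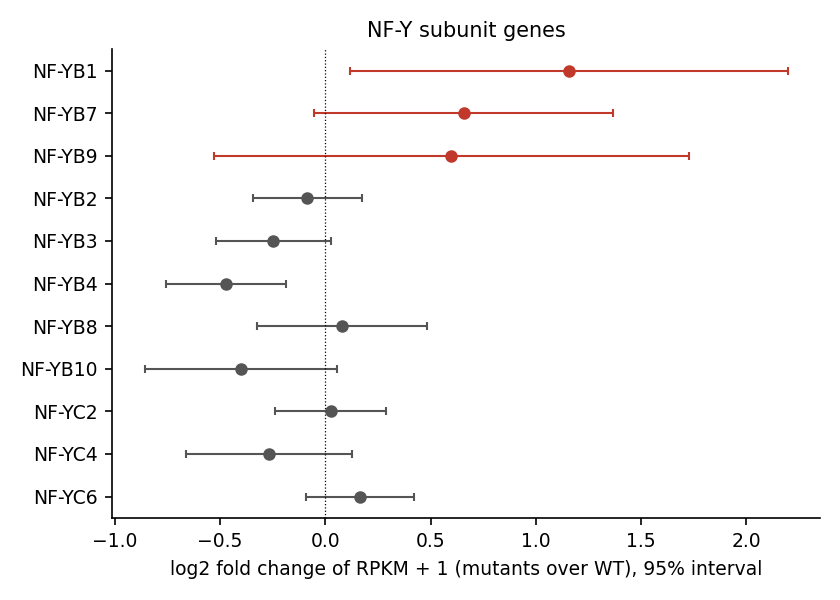
Log2 fold change of RPKM + 1, mutants over WT (x axis), with 95% limma intervals, for the 3 members (red) and the 8 other NF-Y subunit genes tested (grey). The members lie at 1.16, 0.66 and 0.60 with wide intervals, and the other genes lie between -0.47 and 0.16; none of the genes shown passed the threshold.

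Of the genes reported as targets of NF-YB1 in rice, 3 could be named. GBSSI (Os06g0133000), the granule-bound starch synthase that makes amylose in the endosperm, had 34.0 and 20.8 RPKM in the osbzip76-1 libraries and 91.4 RPKM in the osbzip76-2 library, against 9.79, 2.10 and 7.67 RPKM in WT replicates 1 to 3. The order of the libraries was the same as for NF-YB1 within the mutants, with osbzip76-2 highest and osbzip76-1 replicate 2 lowest. It was also the same within WT, with replicate 1 highest and replicate 2 lowest in both genes. This order was not particular to them. SUS3 had it in both groups, and NF-YB7 had it within the mutants. AGPL2 had it in both groups too, with its upper mutant libraries nearly level (192.8 and 192.9 RPKM). The GBSSI groups did not overlap, as those of NF-YB1 did, and its log2 fold change was 2.64 (SE 0.61, limma adjusted p = 0.144). With array weights GBSSI passed, with an estimate of 1.76 on the log2 scale (limma adjusted p = 0.0435), a setting in which 1246 of all genes tested passed. In the osbzip76-2 library alone its log2 fold change was 3.80 (SE 0.66, limma adjusted p = 0.0844), and it passed there with limma-voom on recovered reads (adjusted p = 0.0375) and with array weights (adjusted p = 0.00176). Leaving out WT replicate 2 also made it pass there (limma adjusted p = 0.00168). In the osbzip76-2 settings in which GBSSI passed, more of all genes tested passed than in the main fit. In osbzip76-1 its log2 fold change was 2.06 (SE 0.52, limma adjusted p = 0.200), and it passed with array weights and without WT replicate 2 (limma adjusted p = 0.0235 and 0.0231). In these osbzip76-1 settings 1059 of 21454 and 525 of 21521 genes passed, against 82 in the main fit. SUT1 (Os03g0170900), a sucrose transporter of the filling grain, had 85.6, 74.6 and 84.2 RPKM in mutant libraries and 69.8, 66.04 and 68.3 RPKM in WT (log2 fold change 0.25, SE 0.10, limma adjusted p = 0.340). SUT4 (Os02g0827200), another sucrose transporter, averaged 8.93 ± 0.51 RPKM in mutant libraries and 8.92 ± 0.21 RPKM in WT (SD, n = 3 each).

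The likeness of patterns was measured as Pearson's r of log2(RPKM + 1) values over the 6 libraries, among 170 named genes, and is a description without a test. With 6 points, a high r can rest on 1 library, and WT replicate 2 was the lowest for NF-YB1 and NF-YB9. NF-YB1 was most like GBSSI (r = 0.965), then LYP6 (r = 0.894) and SERK2 (r = 0.879), and 0.620% of all genes tested had an r over 0.9 with it. NF-YB7 was most like SERL2 (r = 0.973) and the mitochondrial rows orf25 (r = 0.958) and cox3 (r = 0.924). Of all genes tested, 0.424% had an r over 0.9 with NF-YB7. The cox3 row had 6.50, 1.63 and 7.47 RPKM in mutant libraries and 2.46, 3.43 and 2.91 RPKM in WT, and the part of organelle transcripts in the NF-YB7 values was not tested. NF-YB9 was most like the chromomethylase gene CMT3 (r = 0.947), the cellulose synthase-like gene CSLD1 (r = 0.938) and SUS3 (r = 0.918), and 3.30% of all genes tested had an r over 0.9 with it. Among the members r was 0.716 between NF-YB1 and NF-YB9, 0.696 between NF-YB1 and NF-YB7 and 0.076 between NF-YB7 and NF-YB9.

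**Figure D4:**
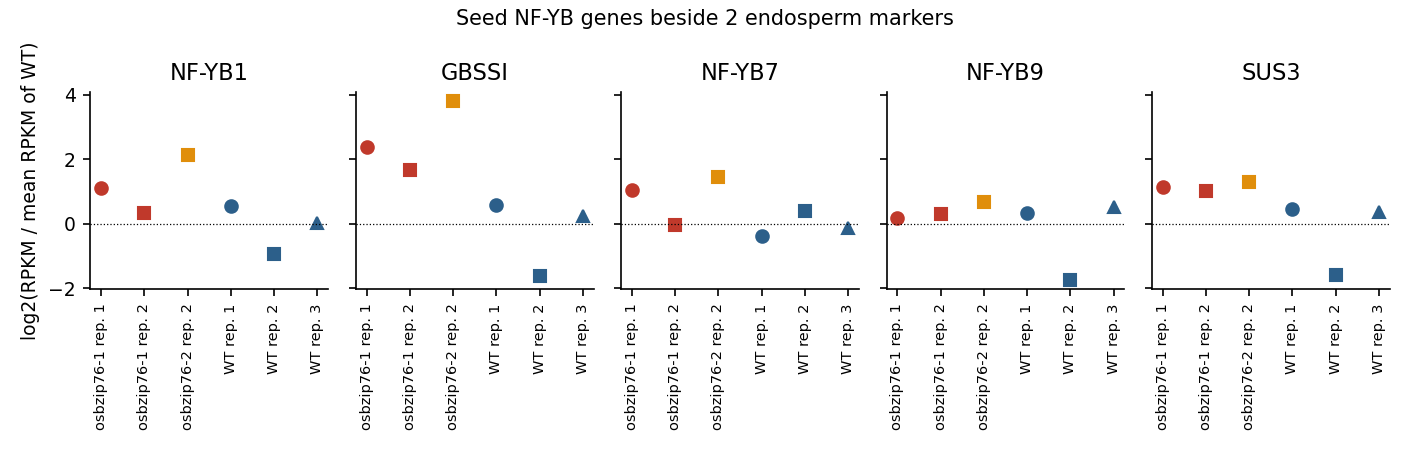
Level of NF-YB1, NF-YB7 and NF-YB9 beside GBSSI and SUS3 in each library (x axis), as log2 of RPKM over the WT mean of the same gene (y axis); colours are genotypes and marker shapes replicate numbers. NF-YB1, GBSSI, NF-YB7 and SUS3 share the order of the mutant libraries. NF-YB1, GBSSI, NF-YB9 and SUS3 are lowest in WT replicate 2, at 2.62, 2.10, 3.56 and 35.8 RPKM.

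The summed endosperm markers were higher in each mutant library than in each WT library and lowest in WT replicate 2. None of the 3 passed the threshold in the mutants against WT with all libraries. AGPL2 passed without WT replicate 2 (log2 fold change 1.11, limma adjusted p = 0.0107), where 0.502% of all genes tested passed. With array weights AGPL2 (log2 fold change 1.10, limma adjusted p = 0.00992) and GBSSI passed, and SUS3 passed in neither setting. The members were also expressed relative to the summed endosperm markers. SUS3, a sucrose synthase of the filling grain, had 235, 215 and 261 RPKM in mutant libraries and 147, 35.8 and 138 RPKM in WT. Per 1000 RPKM of GBSSI, AGPL2 and SUS3 summed, NF-YB9 stood at 29.4, 36.9 and 34.8 RPKM in mutant libraries and at 61.9, 47.0 and 75.7 RPKM in WT replicates 1 to 3. On this scale all mutant libraries were below all WT libraries, with a log2 difference of -0.85 (exact two-sided permutation p = 0.1, the smallest that 3 libraries against 3 allow). The groups also did not overlap relative to SUS3 alone (log2 difference -0.71), and they did overlap relative to AGPL2 alone (log2 difference -0.82, exact permutation p = 0.2). The summed markers already set the groups apart, at 403 to 546 RPKM in mutant libraries and 75.8 to 244 RPKM in WT. A gene with the same RPKM in every library would also separate on this scale, so this test cannot show a change of NF-YB9 itself. NF-YB1 had 23.9, 15.9 and 41.0 RPKM per 1000 in the mutants and 30.3, 34.6 and 22.9 RPKM per 1000 in WT, a log2 difference of -0.21 (exact permutation p = 0.7). NF-YB7 had 9.69, 5.24 and 10.9 RPKM per 1000 in the mutants and 6.79, 37.5 and 8.52 RPKM per 1000 in WT, so that WT replicate 2 was far above all other libraries (log2 difference -0.66, exact permutation p = 0.6). Without WT replicate 2 the log2 differences were -1.03 for NF-YB9, -0.076 for NF-YB1 and 0.11 for NF-YB7. GBSSI enters this sum and is also a reported target of NF-YB1. This scaling was chosen after the values were seen, and the part of endosperm content in the levels of the members was not tested.

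**Figure D5:**
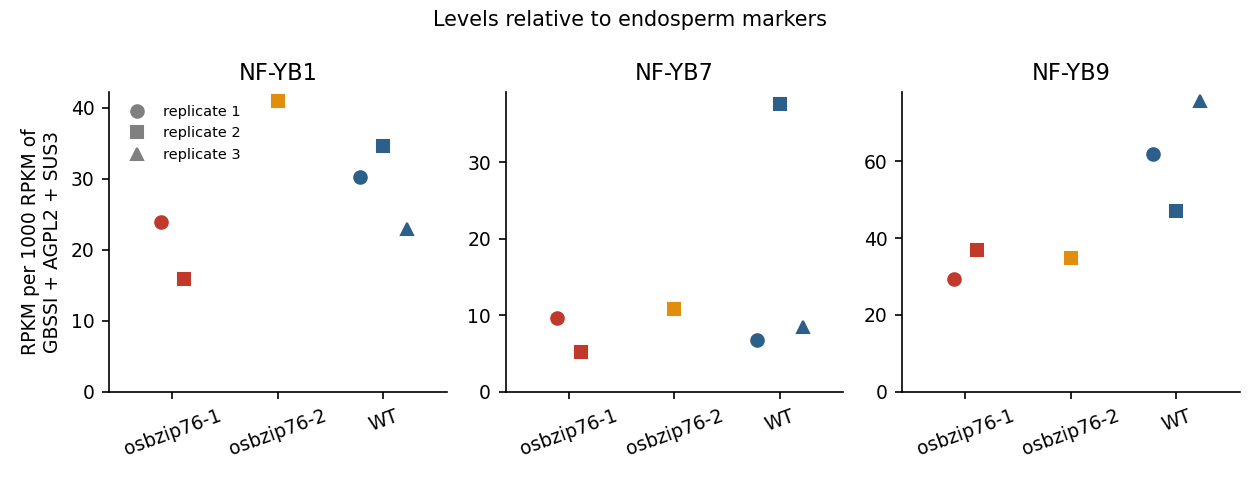
RPKM of each member per 1000 RPKM of the endosperm markers GBSSI, AGPL2 and SUS3 summed (y axis, from 0), by genotype (x axis); points are libraries and marker shapes replicate numbers. For NF-YB9 the mutant libraries lie at 29.4 to 36.9 and the WT libraries at 47.0 to 75.7, and for NF-YB7 WT replicate 2 stands alone at 37.5. The summed markers alone also separate mutant from WT libraries.

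The embryo markers were set beside the LEC1 relatives. VP1 (Os01g0911700), the rice relative of the seed factor ABI3, had 3.67, 2.99 and 6.11 RPKM in mutant libraries and 3.83, 3.85 and 3.65 RPKM in WT. Its osbzip76-2 library was highest, as for all 3 members and for 13.5% of all genes tested. OSH1, a homeobox gene of the embryo shoot region, had 7.56, 4.11 and 5.16 RPKM in mutant libraries and 3.00, 6.08 and 5.93 RPKM in WT. Their r with NF-YB7 over the 6 libraries was 0.720 for VP1 and 0.556 for OSH1, and with NF-YB9 it was 0.195 and -0.27. With NF-YB1 it was 0.679 for VP1 and -0.011 for OSH1.

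By their identifiers NF-YB7 and NF-YB1 lie side by side on chromosome 2, with no other row that carries such an identifier between them. Rows named only by a gene symbol give no position and were not placed. The next row on the side of NF-YB7, Os02g0725600, had 51.5, 51.6 and 42.6 RPKM in mutant libraries and 51.5, 44.6 and 45.8 RPKM in WT. The next row on the side of NF-YB1, Os02g0726000, had 15.4, 23.01 and 64.2 RPKM in mutant libraries and 30.01, 68.1 and 52.7 RPKM in WT. It shared the highest mutant library with NF-YB1 and NF-YB7, and differed from NF-YB1 in WT, where replicate 2 was its highest library.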

How the data were processed

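The authors deposited RPKM values per gene, with a column for 6 of the 7 libraries in the labels and a mean column per genotype class, which equalled the means of its 3 columns. Per the submitters' processing notes the genome build was IRGSP-1.0. The aligner, read counter and strand setting were not given in the sources used here, so reads shared between similar or overlapping genes are uncertain. Columns were matched to libraries by title. Nothing used here says whether replicates came from separate plants, so p-values measure the spread between these libraries, which may be technical. Whole reads were recovered from the RPKM steps: all 168975 values above 0 came out whole within 0.02 reads. Genes whose reads share a common factor come out too low.

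Tests used limma 3.58.1 in R 4.3.3 (lmFit and two-sided eBayes with trend) on log2(RPKM + 1) for genes with a mean of at least 1 RPKM. The fit was tried on simulated reads with the same dispersion for all genes and no outlying library. That trial does not show how the tests behave on these data. Ratios were tested by exact permutation (Python 3.11.15). Alternatives were a pseudocount of 0.1, no filter, TMM factors, voom on recovered reads, array weights, a replicate block and leaving out each library.

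The members and gene lists were chosen with earlier results of these data known. The text names the members, the listed NF-Y subunits, NF-YB1 targets and tissue markers, and for each member the 3 most similar named genes. The members were taken by the identifiers given with their names. For 16 other genes, identifiers written from memory were kept where the gene table (assembly ASM3414082v1) holds 1 gene of that symbol on the same chromosome, within 5% of the chromosome's genes (largest gap 2.97%); 8 listed genes failed this and were left out. The identifiers of the NF-Y list were added after the table was seen. Sequences of the members were not used here.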

Additional observations from a re-analysis of the deposited data

Results flagged for a closer look

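Only the members and the listed genes that could be named were searched here. For 4 of them both osbzip76-1 libraries lay on one side of the WT mean and the osbzip76-2 library on the other. The share of all genes with this pattern was not counted. These differences between the alleles were not tested by this rule, they rest on 1 osbzip76-2 library, and none of the genes is a member. In the 3-group fit the log2 fold changes of osbzip76-2 against osbzip76-1 were 0.72 for VP1, -0.26 for NF-YB8 and 0.12 for SUT4, and none passed. VP1 stood at 6.11 RPKM in the osbzip76-2 library and at 3.67 and 2.99 RPKM in those of osbzip76-1, with a WT mean of 3.78 RPKM. NF-YB8 stood at 3.77 RPKM in the osbzip76-2 library and at 4.44 and 4.98 RPKM in those of osbzip76-1, with a WT mean of 4.14 RPKM. SUT4 stood at 9.49 RPKM in the osbzip76-2 library and at 8.51 and 8.80 RPKM in those of osbzip76-1, with a WT mean of 8.92 RPKM. NF-YB11 stood at 0.164 RPKM in the osbzip76-2 library and at 0.0556 and 0.0262 RPKM in those of osbzip76-1, with a WT mean of 0.0756 RPKM, a level of a few reads.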

How the results depend on the processing

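With both alleles together, NF-YB1 and NF-YB7 kept a positive log2 fold change and missed the threshold in all 13 alternatives, with estimates from 0.49 to 1.55 and from 0.41 to 0.99. NF-YB9 missed it in all 13 and turned negative without WT replicate 2, its estimates with a library left out ranging from -0.039 to 0.96. In osbzip76-1 NF-YB9 was at -0.033 with array weights and at -0.17 to 0.83 with a library left out. In osbzip76-2 NF-YB1 passed with array weights (1.65) and without WT replicate 2, and ranged from 1.69 to 2.30 with a library left out. The log2 ratio of NF-YB7 to NF-YB9 had no stable sign, at -0.34 to 0.85 with a library left out, and that of NF-YB1 to NF-YB7 ranged from 0.012 to 0.89. The count of 83 genes was 52 without a filter, 54 with voom, 1246 with array weights and 34 to 108 with a library left out.

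Whether replicate numbers pair the libraries is not known. Deviations of same-numbered libraries had r of 0.22, -0.33 and 0.37, and those of differently numbered libraries had r of -0.35 to 0.28. These values cannot settle it. With the replicate block the count was 32, and NF-YB1, NF-YB7 and NF-YB9 had log2 fold changes of 1.29, 0.60 and 1.06, none past the threshold.

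Among other genes, the sign turned with array weights for NF-YC2 (-0.054) and VP1 (-0.042), and with the replicate block for SUT4 (-0.020). With a library left out it turned for NF-YB8 (-0.065 to 0.16), NF-YC2 (-0.030 to 0.077), SUT4 (-0.039 to 0.032), OSH1 (-0.12 to 0.32) and VP1 (-0.15 to 0.27). Relative to the summed endosperm markers it turned for NF-YB1 (-0.56 to 0.12) and NF-YB7 (-1.13 to 0.11), and NF-YB9 stayed at -1.03 to -0.68. A gene with the same RPKM in every library would also stay negative on this scale. Leaving out the osbzip76-2 library gives no value for its own contrasts. The causes were not tested. NF-YB7 rests on 43 to 151 reads per library and NF-YB1 on 51 to 457, which limits their counting precision; the osbzip76-1 replicates of both differed beyond it.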
